A study of Mus musculus with 36 samples.

Results

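The transcripts described here are those of 10 heat shock genes in mouse liver: Hspa1a, Hspa1b, Hspa8, Hsph1, Hsp90aa1, Hsp90ab1, Dnajb1, Hspb1, Hspe1 and Serpinh1. They were taken by symbol from a named list, and all 10 were found among the 53715 gene identifiers of the count table, of which 14068 genes had enough counts to be tested. All 10 were among the genes tested. RNA came from livers of 36 male C57BL/6 mice, an inbred strain, at 10 weeks of age. From 4 weeks of age and for 6 weeks the mice had eaten the purified AIN93G diet alone (control), the same diet with 10% red tomato powder, or the same diet with 10% tangerine tomato powder. Red tomatoes are rich in all-trans lycopene, and tangerine tomatoes in cis lycopene and the compounds it is made from. There were 12 libraries per diet, each from a mouse of its own number, although the design text allows for groups below that size. The labels do not say that the numbers are separate cages or litters, so p-values measure the spread between these mice. No time of day of tissue collection is given in the sources used here.

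Heat shock proteins are chaperones, which bind unfolded or newly made proteins and help them to fold, and many of their genes are switched on within minutes by heat or proteotoxic stress. The switch is the transcription factor HSF1, which in unstressed cells is held by chaperones and on stress binds, as a trimer, to repeats of the letters GAA in alternating orientation (the heat shock element). In liver several of these genes are also known to cycle over the day, together with body temperature and feeding. The members cover several jobs: HSP70 proteins (Hspa1a and Hspa1b, the inducible pair, and Hspa8, the constitutive form), the HSP110 exchange factor Hsph1, the J-domain co-chaperone Dnajb1, the HSP90 proteins Hsp90aa1 (inducible) and Hsp90ab1 (constitutive), the small heat shock protein Hspb1, the mitochondrial chaperonin lid Hspe1, and Serpinh1 (HSP47), which resides in the endoplasmic reticulum and folds collagen.

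RefSeq promoter windows (mouse build GRCm38.p6) were matched by symbol for 7 of the 10 members, in 9 windows of 250 bases that end at the base before a transcription start. The windows of Hspa1a and Hspa1b are shown whole because the pair lie next to each other on chromosome 17 and are nearly one sequence: 3 of 250 bases differ (98.8% identical). Capitals mark a pair of GAA units in the order GAANNTTC, where N is any base, and both letters and order read the same on the other strand. Both genes are on the minus strand, and the sequences run 5′ to 3′ on that strand, at chr17:34972157-34972406 for Hspa1a and at chr17:34959239-34959488 for Hspa1b.
Hspa1a: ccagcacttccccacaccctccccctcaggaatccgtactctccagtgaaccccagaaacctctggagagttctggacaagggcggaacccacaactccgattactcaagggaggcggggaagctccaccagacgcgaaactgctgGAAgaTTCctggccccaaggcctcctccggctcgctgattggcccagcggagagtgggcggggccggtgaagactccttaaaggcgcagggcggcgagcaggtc
Hspa1b: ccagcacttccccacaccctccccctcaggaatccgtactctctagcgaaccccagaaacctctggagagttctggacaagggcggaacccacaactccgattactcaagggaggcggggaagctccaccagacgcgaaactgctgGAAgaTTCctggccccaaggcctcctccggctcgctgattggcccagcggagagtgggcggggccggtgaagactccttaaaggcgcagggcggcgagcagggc
In both windows the pair begins at position -104, where -1 is the base before the start.

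A further 3 members had such letters, and 30 bases around them are shown because the number and arrangement of the units differ from one gene to the next. Capitals mark GAANNTTC or its mirror arrangement TTCNNGAA, which also reads the same on both strands.
Hspb1, chr5:135887801-135887830, plus strand: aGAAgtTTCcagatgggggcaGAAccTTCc
Hspe1, chr1:55088053-55088082, plus strand: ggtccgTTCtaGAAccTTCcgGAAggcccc
Hsph1, chr5:149636351-149636380, minus strand: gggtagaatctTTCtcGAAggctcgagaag
Hspb1 had 2 separate pairs, at positions -117 and -97. Hspe1 had 3 overlapping pairs, at -89, -84 and -79, which form 4 units in an unbroken row, and its site lies upstream of this Hspe1 start but inside Hspd1 (chr1:55077835-55088243), the gene of its chaperonin partner, which runs the other way and overlaps Hspe1. Hsph1 had 1 pair, at -33 or -54 depending on which of its RefSeq starts is used. By the GENCODE bounds of the gene (chr5:149614287-149636376) this pair lies inside Hsph1. The windows of Dnajb1 and Serpinh1 did not hold these letters. However, the Dnajb1 window at chr8:83608298-83608547 overlapped Dnajb1 exon by 245 bases, so it was mostly transcribed sequence. The other, at chr8:83607925-83608174, overlapped an exon of Tecr by 47 bases. Of 32851 RefSeq windows of the same length, 12.8% held one of the 2 pairs on either strand, and 0.466% held 3 units in a row (GAANNTTC followed directly by NNGAA, searched on both strands, so that each row also holds both pairs). A match describes letters and is not evidence of binding.

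Total counts per library lay between 21290169 and 33810573. Of the hepatocyte markers, 6 of 7 listed had a row in the table, and their summed level was between 82293 and 121426 CPM (counts scaled to the effective library size of edgeR) in every library. A few libraries stood apart by markers of other cells: T cell markers summed to 222 CPM in the library of red mouse 186 and to at most 5.19 CPM in any tangerine and 4.10 CPM in any control library, and cholangiocyte (bile duct cell) markers summed to 111 CPM in that of tangerine mouse 192 and to at most 49.4 CPM in any red and 30.3 CPM in any control library. All of these libraries were kept.

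Between them the members spanned a wide range of abundance, here per kilobase of exonic sequence so that genes of different length can be compared. Hsp90ab1 was the most abundant at 267 ± 34.5 CPM per kb (SD, n = 36) and was above Hspa8, at 99.3 ± 24.0 CPM per kb (SD, n = 36), in 36 of 36 libraries. Hspa8 was above Hspe1 (33.1 ± 3.33 CPM per kb), and Hspe1 above Hsp90aa1 (17.0 ± 3.99 CPM per kb), in all 36 libraries too. The constitutive HSP70 and HSP90 forms therefore led the list and the inducible forms followed. Hsp90aa1 was above Hspa1b (11.4 ± 8.80 CPM per kb) in 32 libraries. Neighbours in the middle of the order changed places between livers: Hspa1b was above Dnajb1 (8.76 ± 2.04 CPM per kb) in only 20 of 36 libraries, and Dnajb1 above Hsph1 (7.59 ± 2.78 CPM per kb) in 29. Serpinh1 (4.08 ± 1.46 CPM per kb), Hspb1 (2.82 ± 0.856 CPM per kb) and Hspa1a (0.294 ± 0.288 CPM per kb) closed the order, with Hsph1 above Serpinh1 in 32 libraries, Serpinh1 above Hspb1 in 34, and Hspb1 above Hspa1a in all 36.

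The inducible HSP70 genes differed most between single livers. Hspa1b (ENSMUSG00000090877, chr17:34956436-34959238) had a lowest, median and highest level of 12.8, 30.5 and 78.4 CPM in controls, 13.2, 30.9 and 143 CPM under red, and 8.47, 22.2 and 38.9 CPM under tangerine. The highest library, of red mouse 177, was 16.8 times the lowest, of tangerine mouse 160, and the 3 diets overlapped. Hspa1a (ENSMUSG00000091971, chr17:34969190-34972156) was near the limit of counting, with 2 to 101 reads per library: its lowest, median and highest levels were 0.244, 0.722 and 3.58 CPM in controls, 0.117, 0.726 and 3.61 CPM under red, and 0.0737, 0.340 and 1.07 CPM under tangerine. The same mice were highest for both genes in each diet (188, 177 and 195). The biological coefficient of variation that edgeR fitted within diets was 56.3% for Hspa1b, above that of 99.4% of 1995 genes of like abundance, and 72.1% for Hspa1a, above 98.7% of 1266 such genes. Because the transcripts of the pair are 99.2% identical over 2201 aligned bases and the sources used here do not say how reads that match both were counted, the split between them is uncertain: Hspa1a held 2.71% as many reads as Hspa1b in all.

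**Figure D1:**
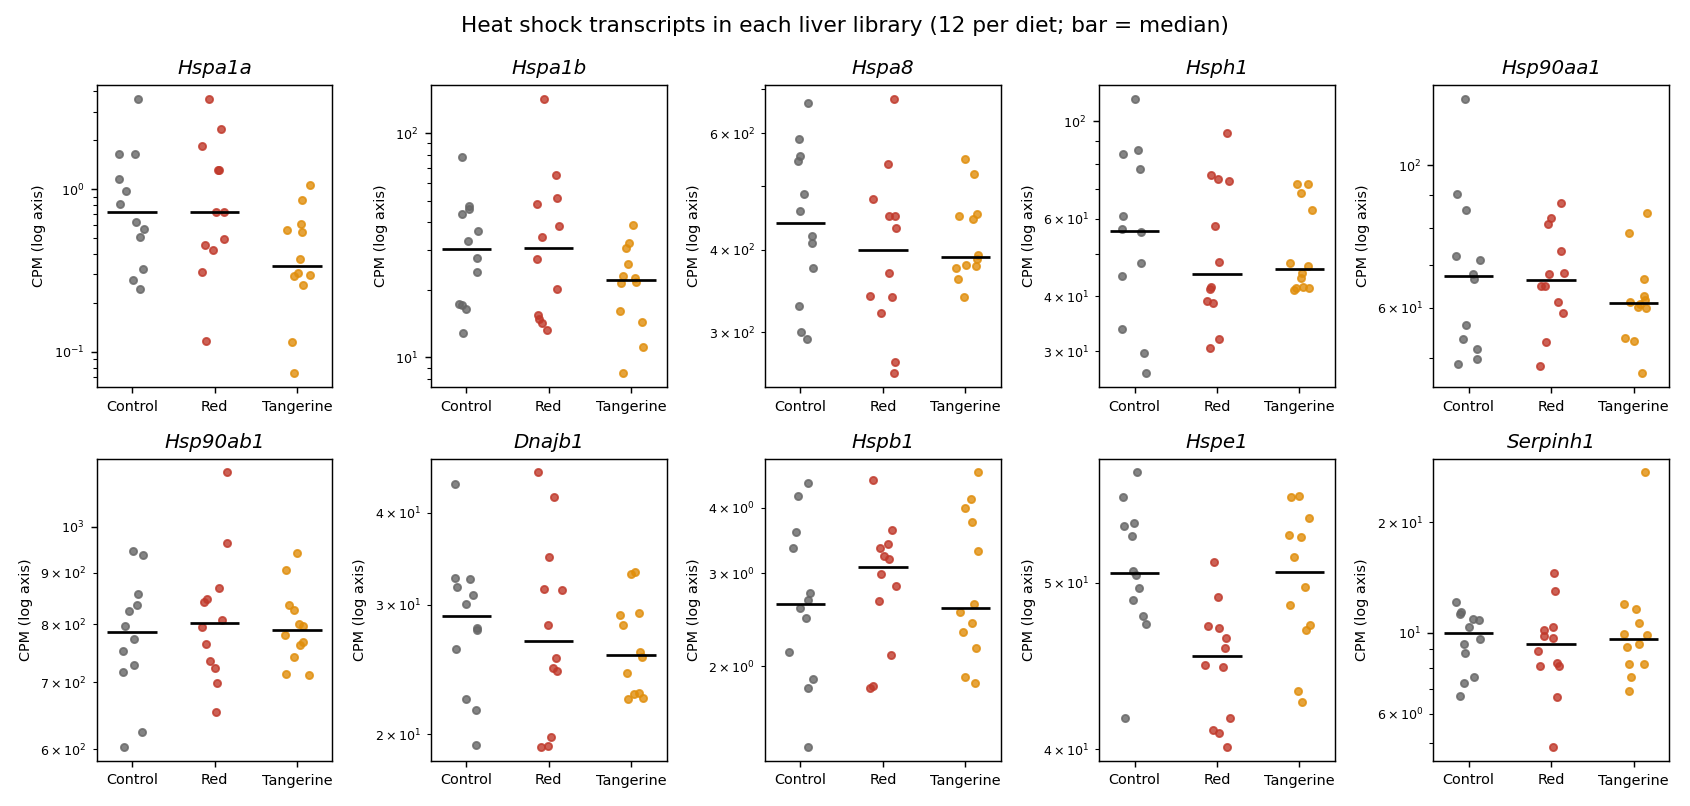
Level of each heat shock gene in CPM (log axis, one scale per panel) in the 12 libraries of each diet; points are libraries and bars are medians. The diets overlap in every panel, and the widest spread, for Hspa1a and Hspa1b, runs over more than a factor of 10.

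The other stress-inducible members varied less. Hsph1, which opens HSP70 for exchange of nucleotide, had lowest, median and highest levels of 26.7, 56.4 and 112 CPM in controls, 30.4, 44.9 and 93.7 CPM under red, and 41.4, 46.1 and 72.1 CPM under tangerine. Dnajb1, which hands clients to HSP70, ran at 19.3, 29.0 and 43.7 CPM in controls, 19.2, 26.8 and 45.4 CPM under red, and 22.3, 25.7 and 33.2 CPM under tangerine. Hsp90aa1 ran at 49.0, 67.1 and 127 CPM, 48.6, 66.2 and 87.5 CPM, and 47.3, 61.0 and 84.3 CPM on the same diets in that order. For each of the 3 genes the diets overlapped. Against genes of like abundance, the fitted variation of Hsph1 (34.5%) was above that of 97.8%, that of Dnajb1 (21.8%) above 89.96% and that of Hsp90aa1 (21.1%) above 89.0%.

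Of the constitutive forms, Hspa8 was also variable for a gene so abundant, and Hsp90ab1 was not. Hspa8, the everyday HSP70, had lowest, median and highest levels of 293, 439 and 666 CPM in controls, 260, 400.0 and 677 CPM under red, and 339, 390.2 and 549 CPM under tangerine, and its fitted variation of 23.3% was above that of 83.9% of like genes. Hsp90ab1, the everyday HSP90, ran at 603, 785 and 945 CPM in controls, 654, 801 and 1133 CPM under red, and 713, 789 and 942 CPM under tangerine, with a fitted variation of 13.6%, above 41.7% of like genes. Hspe1 was the steadiest member, at 9.51%, above only 21.6%. Processed pseudogenes nearly identical to a member can share its reads. Such copies numbered 11 for Hspa8 (4 of them with enough counts to be tested), 5 for Hsp90aa1, 4 for Hspe1, 2 for Hsp90ab1 and 1 for Hspb1. The Hsp90aa1 copy Gm5844, 98.5% identical over 2202 bases, held 30.3% as many reads as Hsp90aa1. Hsp25-ps1, 99.8% identical to Hspb1 over 441 bases, held 14.3% as many reads as Hspb1.

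The least abundant of the remaining members were Hspb1 and Serpinh1. Hspb1, whose product holds unfolded proteins without using ATP, had lowest, median and highest levels of 1.40, 2.63 and 4.47 CPM in controls, 1.81, 3.09 and 4.51 CPM with red, and 1.86, 2.58 and 4.67 CPM with tangerine, and its fitted variation was 28.4%. It had 36 to 160 reads per library, so counting error adds to that spread. Serpinh1 ran at 6.70, 9.97 and 12.1 CPM in controls, 4.87, 9.30 and 14.5 CPM with red, and 6.93, 9.58 and 27.3 CPM with tangerine. The diets overlapped for both genes, and the highest Serpinh1 value, of tangerine mouse 192, lay far above every other library. Its fitted variation of 28.3% was above that of 94.4% of genes of like abundance, and that of Hspb1 above 86.5%.

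The first question put by the design is whether a tomato diet moved these transcripts. No member passed an adjusted p under 0.05 (edgeR's quasi-likelihood F test over all 14068 tested genes, Benjamini-Hochberg adjustment) for red against control, where 0.149% of all genes did, for tangerine against control (0.0142% of all genes), for tangerine against red (1.71%), for both tomato diets against control (0.00711%) or for any difference among the 3 diets (1.18%). At an unadjusted p under 0.05 the members past it were 1 of 10 for red against control, beside 13.3% of all genes, 1 for tangerine against control (5.47%), 3 for tangerine against red (15.1%), and 1 for both diets against control (6.77%). For any difference among the 3 diets 2 members were past it, beside 13.9%. Hspe1 was the member past it for red against control and both diets against control, Hspa1a for tangerine against control, and Hspa1a, Hspa1b and Hspe1 for tangerine against red. A log2 fold change below 0 was found for 6, 7, 7 and 7 of 10 members in the directed comparisons in the same order, beside 51.5%, 55.4%, 51.5% and 54.5% of all genes. DESeq2's Wald test also called 0 members in each of the 4 directed comparisons, where it called 1.19%, 0.0498%, 2.99% and 0.0853% of all genes. It gave Hspa1a no adjusted p for red against either control or tangerine. Limma-voom with sample weights called 1, 0, 1 and 0 members, beside 10.5%, 0.0142%, 5.2% and 0.242%. The median log2 fold change of the members was -0.02 for red against control, -0.11 for tangerine against control and -0.04 between the tomato diets, beside medians of -0.00, -0.01 and -0.00 over all genes.

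**Figure D2:**
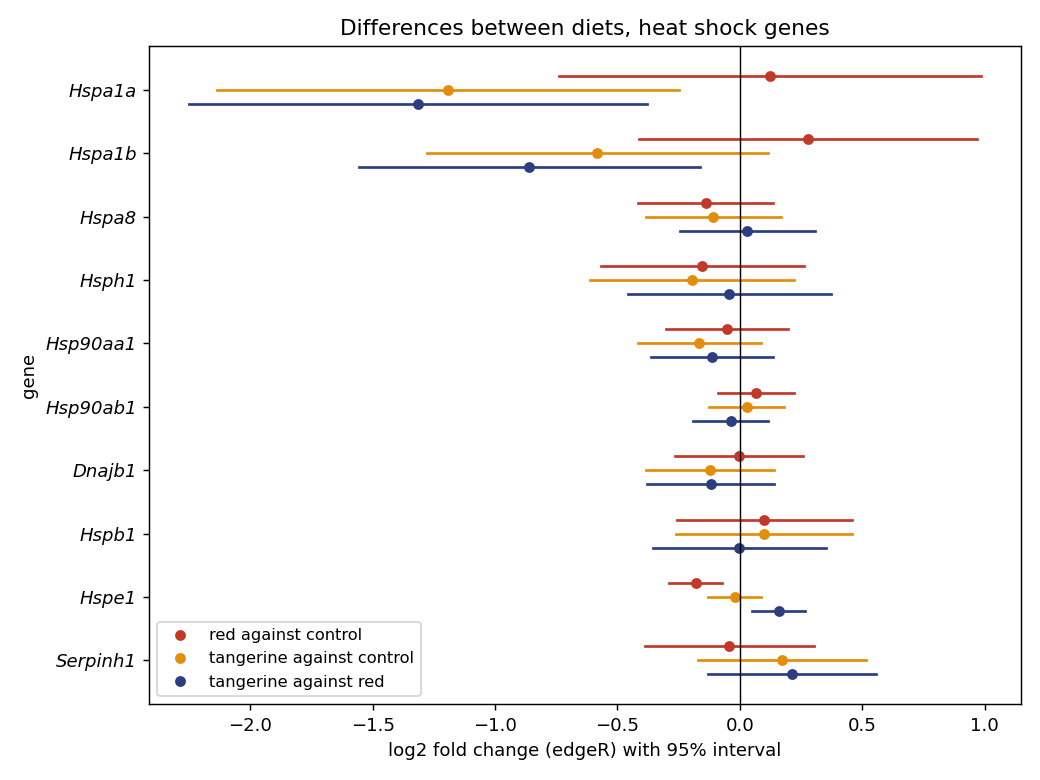
Log2 fold change (x axis) of each heat shock gene between diets from edgeR, with 95% intervals as lines; the colours are red against control, tangerine against control and tangerine against red. The intervals of Hspa1a and Hspa1b are the widest and those of Hspe1 among the narrowest; none of the 30 values passed the adjusted threshold.

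Hspe1 (ENSMUSG00000073676, chr1:55088132-55091307) came nearest to a difference. Its product, HSP10, is the lid of the mitochondrial chaperonin whose barrel is the product of Hspd1. Its lowest, median and highest levels were 41.7, 50.6 and 58.0 CPM in controls, 40.1, 45.3 and 51.4 CPM under red, and 42.6, 50.7 and 56.2 CPM under tangerine. Of the red libraries 11 of 12 were not above the control median and 3 were below every control library, while 10 of 12 tangerine libraries were above the red median and 6 above every red library; the groups overlapped all the same. Means were 51.0 ± 4.42, 45.01 ± 3.53 and 50.3 ± 4.64 CPM (SD, n = 12 each). The log2 difference was -0.18 for red against control (SE 0.053, 95% interval -0.29 to -0.07, unadjusted p = 0.0017, edgeR adjusted p = 0.118) and 0.16 for tangerine against red (SE 0.053, edgeR adjusted p = 0.120). Limma-voom gave -0.19 with an adjusted p of 0.0157 and 0.17 with an adjusted p of 0.0332. Over the other settings tried, the adjusted p of red against control passed the threshold once more, at 0.0456 without the library of control mouse 189. With the clock score described below as a covariate the differences were smaller, at -0.11 for red against control (edgeR adjusted p = 0.526) and 0.0712 for tangerine against red (edgeR adjusted p = 0.677). The score itself differed between the tomato diets, at -5.10 to 1.24 in red libraries and -1.19 to 4.39 in tangerine libraries. The parts of score and diet in these differences therefore could not be told apart.

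Hspd1, a neighbour that overlaps Hspe1 on the other strand, ran in parallel at a higher level: 230.0 ± 20.9 CPM in controls, 218 ± 13.5 CPM under red and 234 ± 12.5 CPM under tangerine (SD, n = 12 each). Its log2 differences were -0.08 for red against control (SE 0.046, edgeR adjusted p = 0.491) and 0.10 for tangerine against red (SE 0.046, edgeR adjusted p = 0.288), which did not pass. The library kit keeps the strand, per the labels' protocols, but the strand setting of the counting is not given in the sources used here, so reads from the stretch the genes share may have been counted for either.

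Hspa1a and Hspa1b had the largest differences in size and the widest errors. Against red, tangerine was lower by a log2 difference of -1.32 for Hspa1a (SE 0.461, 95% interval -2.25 to -0.38, edgeR adjusted p = 0.141) and of -0.86 for Hspa1b (SE 0.344, interval -1.56 to -0.16, edgeR adjusted p = 0.211). Of the 12 tangerine libraries 2 were above the red median for either gene, and 2 were below every red library. Against control, the values were -1.19 (SE 0.465, edgeR adjusted p = 0.755) and -0.58 (SE 0.344, edgeR adjusted p = 0.954). Without red mouse 177 the tangerine and red difference of Hspa1b was -0.48, with an edgeR adjusted p of 0.503, and that of Hspa1a was -0.997. With the counts of the pair summed to 1 feature, the difference of the sum was -0.87 (edgeR adjusted p = 0.209). Red and control differed by less than the spread for both genes (0.12 for Hspa1a, edgeR adjusted p = 0.930, and 0.28 for Hspa1b, edgeR adjusted p = 0.766), and the sign of both turned without red mouse 177, to -0.19 and -0.10.

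For the remaining 7 members the estimates were small. Hspa8, Hsph1, Hsp90aa1, Hsp90ab1, Dnajb1 and Hspb1 had log2 differences between -0.20 and 0.10 in the 3 pairwise comparisons, and each of their 95% intervals contained 0. Those of Hsp90ab1 were the tightest of these, -0.09 to 0.22 for red against control and -0.13 to 0.18 for tangerine against control. Serpinh1 had a log2 difference of 0.17 between tangerine and control and 0.21 between tangerine and red (SE 0.170 and 0.169, edgeR adjusted p = 0.9999 and 0.568), and without tangerine mouse 192 these were -0.04 and 0.00. A test that misses the threshold does not show that the diets were alike.

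The spread within diets was described as well. On tangerine the SD of log2 CPM was lower than on control for 8 of 10 members, beside 66.0% of all tested genes, and lower than on red for 7 of 10, beside 46.4%. Red had a lower SD than control for 4 of 10 members, beside 69.9% of all genes. For Hspa8 the SD of log2 CPM was 0.39 on control, 0.41 on red and 0.21 on tangerine, and for Dnajb1 0.32, 0.42 and 0.21. It was highest on tangerine for Serpinh1 (0.28, 0.41 and 0.51) and Hspe1 (0.13, 0.11 and 0.14). Many members varied together, as described below, so these counts are not of separate observations. The difference in spread was not tested.

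Livers of the same diet differed together across genes. Of 45 pairs of members, 43 had a positive Pearson r over the 36 libraries, computed on log2 CPM after subtracting the mean of each diet so that no difference between diets entered. In 33 pairs, all positive, a two-sided permutation test within diets (100000 resamples, adjusted over the 45 pairs) gave a p under 0.05. An r of at least 0.5 was reached by 22 of the 45 pairs, beside 6.04% of all pairs among 11029 other expressed genes. In these and later counts Hspa1a and Hspa1b stand as separate members. The split of their reads is uncertain, so their values may partly repeat each other. The strongest pair was Hspa8 and Hsph1 (r = 0.93, rho = 0.94, adjusted permutation p = 2.8e-05, from the smallest p that the permutations can give, 1e-05), with r of 0.94 on control, 0.96 on red and 0.89 on tangerine. For Hspa1b and Dnajb1 r was 0.88 (rho = 0.86, adjusted permutation p = 2.8e-05), with 0.90 on control, 0.95 on red and 0.65 on tangerine.

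**Figure D3:**
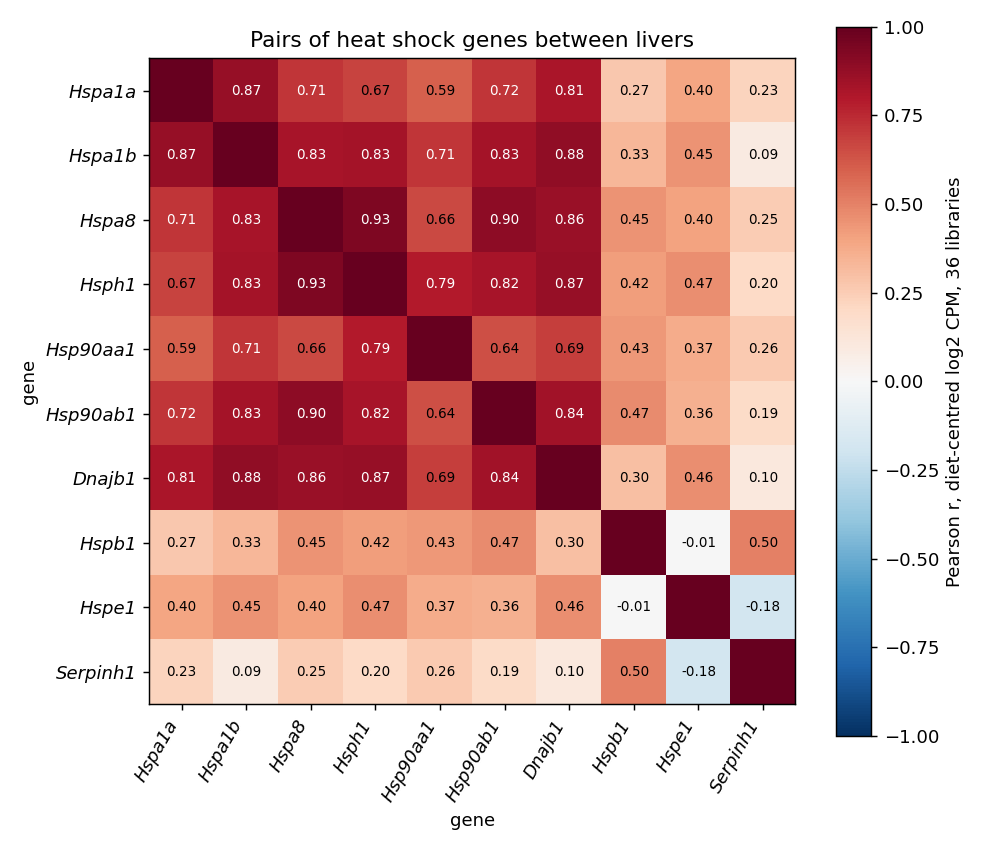
Pearson r of each pair of heat shock genes over 36 libraries, on log2 CPM with the mean of each diet subtracted (colour scale from -1 to 1). The block of 7 genes from Hspa1a to Dnajb1 has r from 0.59 to 0.93; the rows of Hspb1, Hspe1 and Serpinh1 are paler.

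A block of 7 genes, picked out after the values were seen, held all the HSP70, HSP110 and HSP90 members and Dnajb1. Their 21 pairs had r from 0.59 to 0.93, with a median of 0.82, and all 21 adjusted permutation p-values were at most 0.000257. The pairs of Hspa1a and those of Hspa1b may partly repeat each other, since the split of their reads is uncertain. Without the 2 libraries farthest from the median of the second gene r was between 0.47 and 0.93. Within single diets r ran from 0.50 to 0.94 on control, from 0.75 to 0.96 on red and from 0.39 to 0.89 on tangerine, where the spread of most of these genes was smaller. Spearman's rho over the 36 libraries was 0.55 to 0.94. Of all pairs among other genes, 3.07% reached the lowest r of the block. The chaperones of this block work in one cycle: J-domain proteins such as DNAJB1 load clients on HSP70, HSP110 releases them, and HSP90 takes over some of them.

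The remaining members stood partly outside. Hspe1 had r from 0.36 to 0.47 with each of the 7, and all 7 adjusted permutation p-values were at most 0.0448, but with rho some were above 0.05 (up to 0.0839), and on tangerine its r went down to -0.15. Hspb1 had r from 0.27 to 0.47 with the 7, of which 4 passed, and on red these were only 0.04 to 0.30. Serpinh1 passed with none of the 7 (r from 0.09 to 0.26), although on control its r with them was 0.44 to 0.70, and by rho it passed with Hspa8 (rho = 0.40, adjusted permutation p = 0.0282). Hspb1 and Serpinh1 went with each other (r = 0.50, rho = 0.55, adjusted permutation p = 0.00217), at 0.83 on control, 0.76 on red and 0.18 on tangerine.

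**Figure D4:**
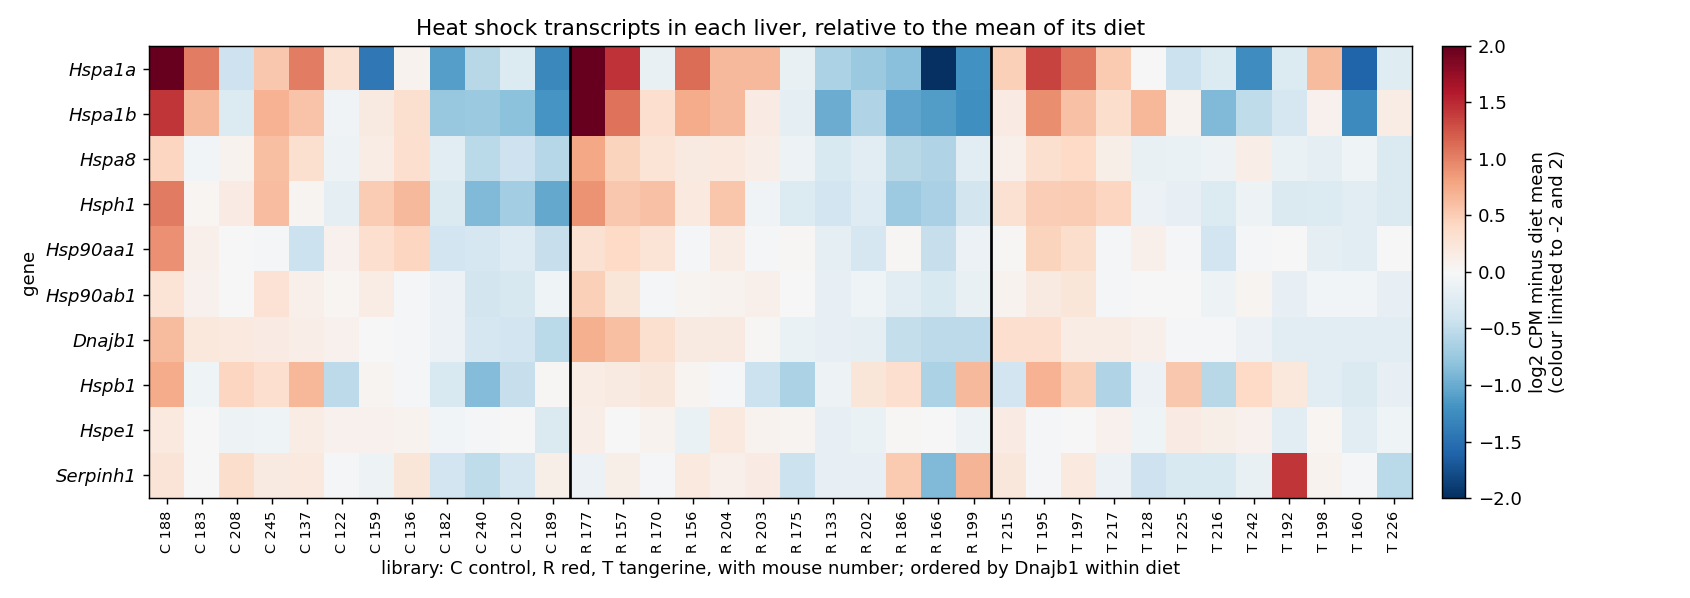
Log2 CPM of each heat shock gene minus the mean of its diet in each of the 36 libraries (colour, limited to -2 and 2), with libraries ordered by Dnajb1 within diet and mouse numbers on the x axis. Libraries such as control 188 and red 177 are high for most genes at once; tangerine 192 stands out for Serpinh1.

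Some livers were high or low for many members at once. The library of control mouse 188 was among the 3 highest of its diet for 10 of 10 members, that of red mouse 177 for 8, and those of tangerine mice 197 and 195 for 9 and 8. At the other end, red mouse 166 was among the 3 lowest for 9 members and control mice 120 and 189 for 7 each. Markers of Kupffer cells, the macrophages of the liver, were also highest in the libraries of control mouse 188 (278 CPM summed), red mouse 177 (315 CPM) and tangerine mouse 195 (256 CPM), beside diet medians of 200 to 225 CPM. All 7 of 7 Kupffer markers were tested, none was at 0, and their median r with the 7 genes of the block was 0.08 to 0.33. For the 6 tested hepatocyte markers it was 0.01 to 0.31, so a relation of this size was not limited to Kupffer markers. Cholangiocyte markers were also highest of the control libraries in mouse 188, and sinusoidal endothelial cell markers highest of the red libraries in mouse 177. The part of any of these cells in the pattern was not tested. With red mouse 186 and tangerine mouse 216 left out, the r of Hspa8 with Hsph1 was 0.93 and that of Hspa1b with Dnajb1 0.89.

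A short list of stress and temperature genes was set beside the members. Bag3, an HSF1 target that couples HSP70 to autophagy, had r of at least 0.5 with 8 of 10 members (all but Hspe1 and Serpinh1), beside 8.49% of other genes. Its r was 0.86 with Hspa8 (rho = 0.83), 0.79 with Hsph1 and 0.60 with Hspa1a, with adjusted permutation p-values of 8.75e-05, 8.75e-05 and 0.00149 (over 70 relations). Cirbp, the RNA-binding protein that rises in the cold, ran the other way: its r was at most -0.5 with 7 of 10 members, the same 7 as in the block, beside 2.03% of other genes. It was -0.73 with Dnajb1 (rho = -0.73), -0.73 with Hsph1 and -0.59 with Hsp90ab1. With Dnajb1 it was -0.59 on control, -0.84 on red and -0.79 on tangerine, so the sign was the same in each diet. Rbm3, the other cold-inducible protein on the list, had r of -0.53 with Hsp90ab1 and -0.41 with Hspa8 (adjusted permutation p = 0.00371 and 0.0422) and did not pass with the others. Hsf1, whose activity is set mainly after translation, had r of 0.52 with Hspa8 and 0.49 with Hsp90ab1 (adjusted permutation p = 0.0145 and 0.0245) and did not pass with the others. None of these 4 genes was called between diets.

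**Figure D5:**
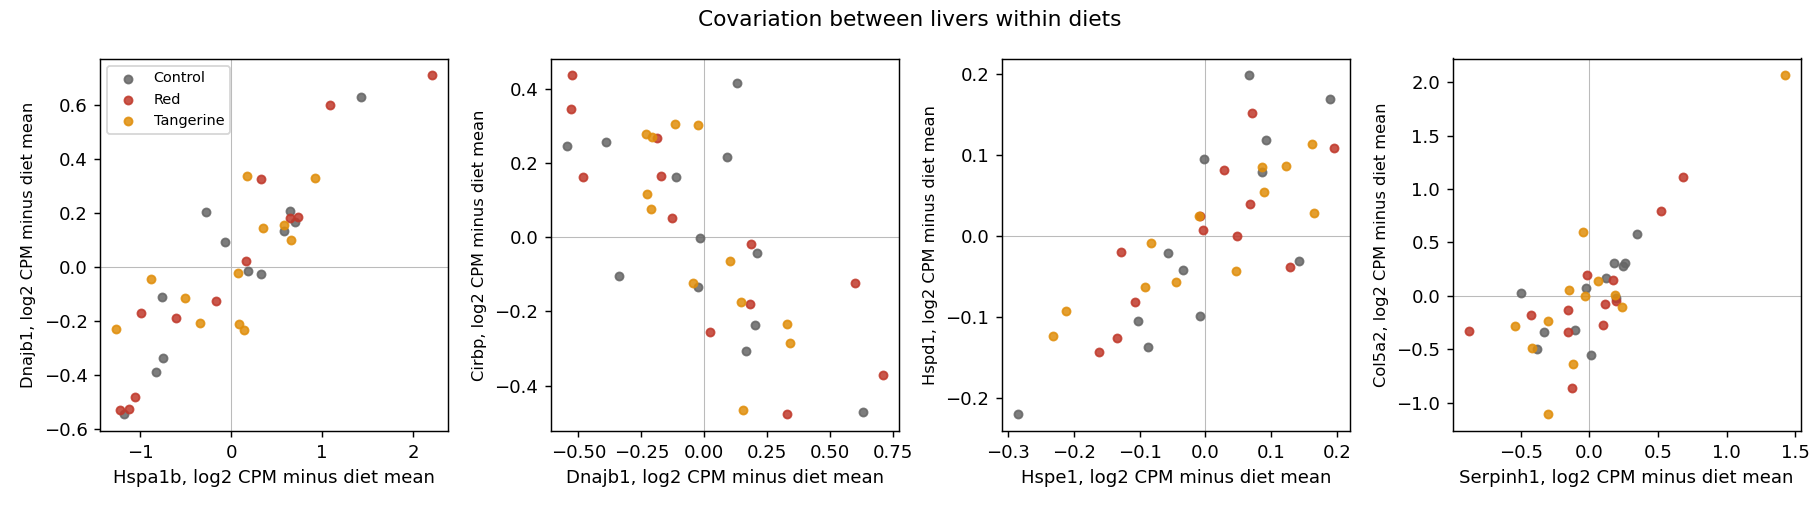
Pairs of genes in the 36 livers, each axis in log2 CPM minus the mean of the diet, coloured by diet: Hspa1b and Dnajb1, Dnajb1 and Cirbp, Hspe1 and Hspd1, Serpinh1 and Col5a2. The second panel falls from left to right (r = -0.73), the others rise (r = 0.88, 0.78 and 0.79), and the point at the upper right of the last panel is tangerine mouse 192.

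Among all expressed genes outside the members, the most similar to each member were found by r over the 36 libraries, as a description. P4ha1, a subunit of the prolyl hydroxylase that modifies collagen, was the nearest gene to Hspa1a (r = 0.76), Hspa1b (0.83) and Dnajb1 (0.90), and among the 3 nearest to Hsph1 (0.86) and Hsp90aa1 (0.77). It had r of at least 0.5 with 7 of 10 members, beside 1.02% of other genes, and not with Serpinh1, the other collagen gene of the list. P4ha1 was picked by its r with members that vary together, so this count describes the choice and is no separate result. Pseudogenes of chaperones came next. Gm7232 and Gm6210, which are 96.5% and 98.6% identical to Hspa8 over 1947 and 1942 bases, were the nearest to Hspa8 (0.95 and 0.92), and Gm5844 the nearest to Hsp90aa1 (0.94). Gm7816, nearest to Hsph1 (0.92), was 99.3% identical over 1194 bases to the J-domain gene Dnaja1. Dnaja1 itself was less similar: among 15 listed J-domain genes that include it, the highest r with Hsph1 was 0.71, for Dnajb4. Reads that match both parent and copy cannot be told apart here. Hsp90ab1 was nearest to Ahsa1 (0.88) and, at the third rank, to Stip1 (0.82), the co-chaperones that start the ATPase of HSP90 and pass clients to it from HSP70. Trmt1l was second to Hspa1a and Hspa1b (0.70 and 0.80).

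Hspe1, Hspb1 and Serpinh1 had other neighbours. Hspe1 was nearest to Hspd1 (r = 0.78, rho = 0.78, adjusted permutation p = 8.75e-05), at 0.80 on control, 0.75 on red and 0.88 on tangerine, and only 1 of 10 members reached 0.5 with Hspd1, beside 4.43% of other genes. Hspb1 was nearest to B4galt7 (0.73), which builds the linker of proteoglycans, and Manf (0.71), a secreted protein of the endoplasmic reticulum stress response. The 12 endoplasmic reticulum chaperones on the list had a median r of 0.58 with Hspb1, 0.52 with Hspa8, 0.51 with Hsph1, 0.45 with Hsp90aa1 and 0.22 with Hspe1, so a relation of this size was not limited to Hspb1. Serpinh1 was nearest to Tagln2 (0.88), Vim (0.85) and Col5a2 (0.79), and all 16 of 16 genes for collagens and collagen folding had a positive r with it, with a median of 0.57, beside -0.01 over all tested genes. These points share 1 library that stands out: the highest Serpinh1 level, 27.3 CPM, was that of tangerine mouse 192, whose cholangiocyte markers were the highest as well. Without it the values with Tagln2, Vim and Col5a2 were 0.80, 0.75 and 0.64, and the median over the 16 genes was 0.47. In bulk tissue, fewer cells of a type and less RNA per cell cannot be told apart. Of the stellate cell markers, from the collagen-making cells of liver, 8 of 9 were tested and Lrat was at 0 in every library. Their median r with Serpinh1 was 0.18, and 0.28 without tangerine mouse 192. For the 4 tested cholangiocyte markers it was higher, at 0.41, and 0.44 without that mouse. The part of either cell type was not tested.

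The daily clock was examined because several heat shock genes are known to cycle in liver and no time of collection is given. Of the 10 tested clock genes 6 were called between red and tangerine, beside 1.71% of all genes. Without red mouse 186, Npas2, Nr1d2 and Dbp were called, and Arntl, Clock and Cry1 had edgeR adjusted p-values of 0.0668, 0.0668 and 0.0694. A clock score was taken from the first principal component of these 10 genes (84.2% of their variance), with high values where Dbp, a clock output gene, was high. Over all 36 libraries no member passed with it by Pearson's r after adjustment over the 10, and 4 passed by Spearman's rho. The largest r were 0.43 for Hspe1, 0.41 for Hspa8, 0.39 for Hsph1 and 0.37 for Dnajb1 (rho = 0.50, 0.48, 0.52 and 0.51, adjusted permutation p = 0.0806 for each). These 4 were the members past the 5% point of r before adjustment, beside 19.5% of other genes. Within red, 8 of 10 members were past it, beside 9.61% of other genes, and r was 0.86 for Hsph1, 0.82 for Hsp90aa1 and 0.80 for Dnajb1. Within control 0 of 10 were past it (5.93% of other genes), and within tangerine 1 (14.2%), which was Hspe1 at 0.78. The relation therefore did not hold in each diet. Control mouse 188, highest of the control libraries for 7 of 10 members, had a score of -4.76, among the lowest. Without the 2 libraries farthest from the median score, r was 0.59 for Hsph1, 0.57 for Dnajb1 and 0.57 for Hspe1. The difference between diets in these relations was not tested.

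The rest of the chaperone network was read from 8 lists of 80 genes, which run from heat shock factors to the TRiC chaperonin that folds actin and tubulin, of which 72 were tested. Of these, edgeR called 0 for red against control, where 4 were higher and 6 lower at an unadjusted p under 0.05, beside 6.67% and 6.63% of all genes. It called 0 for tangerine against control, where 2 were higher and 7 lower without adjustment, beside 2.32% and 3.16%. DESeq2 also called 0 in both. Limma-voom called 9 and 0 of the 72, where its share over all genes was 10.5% and 0.0142%. For tangerine against red 1 was called, and it was lower, beside 0.981% of all genes called lower. Without adjustment 5 were higher and 4 lower there, beside 6.6% and 8.52%. For both diets against control 0 were called by edgeR, DESeq2 or limma-voom, with 2 higher and 9 lower in edgeR without adjustment, beside 3.05% and 3.72%. The called gene was Clpx, the unfoldase of the mitochondrial ClpXP protease. Its lowest, median and highest levels were 58.1, 97.5 and 241 CPM in controls, 101, 189 and 275 CPM under red, and 51.0, 103 and 129 CPM under tangerine. Tangerine was lower than red by a log2 difference of -0.99 (SE 0.222, edgeR adjusted p = 0.0173). It was called in all 36 fits that left out 1 library, but with the clock score as covariate its difference was -0.13 (edgeR adjusted p = 0.709) and with the mouse number -0.90 (edgeR adjusted p = 0.0528). Of all 14068 genes, 0 and 32 were called between tangerine and red with these covariates, and the score itself differed between the tomato diets.

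Within the lists, the genes with the lowest unadjusted p otherwise missed the threshold. Hspa2, an HSP70 known from testis, had a log2 difference of 0.45 for tangerine against red (SE 0.139, edgeR adjusted p = 0.0885), and Tomm34, an HSP90 co-chaperone of mitochondrial import, one of -0.18 (SE 0.055, edgeR adjusted p = 0.0807). Hspb8, the small heat shock protein that works with BAG3, had -0.20 for red against control (SE 0.076, edgeR adjusted p = 0.233). Hsf1 had -0.17 for tangerine against control (SE 0.078, edgeR adjusted p = 0.837). All 8 TRiC subunits had a log2 difference below 0 for red against control and above 0 for tangerine against red, beside 51.5% and 48.5% of all genes, with medians of -0.06 and 0.05. The comparisons share the red libraries, and none of the 8 passed; Cct7 had the lowest p for tangerine against red (0.13, SE 0.052, edgeR adjusted p = 0.227).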

How the data were processed

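Liver RNA of 36 mice was sequenced (12 libraries per diet). Per the labels' protocols, RNA was extracted with Qiagen RNEasy kits and strand-keeping libraries were built with a NEXTflex Rapid Directional kit. The authors deposited raw counts per Ensembl gene for all libraries in 1 table. The submitters' processing notes name FastQC, Trimmomatic, edgeR and the build GRCm38.p6; the aligner, counter, strand setting and treatment of reads with several matches are not given in the sources used here.

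Symbols, positions and exonic lengths came from GENCODE release M21 by identifier without version (53620 of 53715 matched). The 10 genes and the gene lists were chosen with earlier results of these data known. Genes were filtered with filterByExpr (minimum count 10, total 15) of edgeR 4.0.16 in R 4.3.3, scaled by trimmed means of M values, and tested with the robust quasi-likelihood F test on all 36 libraries, adjusted by Benjamini-Hochberg over 14068 genes (threshold 0.05). Standard errors came from the fold change and F. Log2 CPM used a prior count of 2. Totals of 21290169 to 33810573 reads left Hspa1a (2 to 101 reads per library) and Hspb1 (36 to 160) with the largest counting error; no molecular identifiers are mentioned.

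Correlations used diet-centred log2 CPM with permutations within diets. The named genes were all members, list genes past the threshold or with the lowest p of their list, the 3 genes nearest to each member (mean log2 CPM at least 1), and Hsf1, Cirbp, Rbm3, Dbp, Arntl, Hspd1 and Bag3. Copies were found with blastn 2.17.0 (at least 90% identity over 200 bases). Other settings were DESeq2 1.42.0, limma 3.58.1 (voom), sva 3.50.0 (5 of 9 estimated surrogate variables), other filters, covariates and left-out libraries. The fit and the permutation test were tested on simulated data.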

Additional observations from a re-analysis of the deposited data

Results flagged for a closer look

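Several genes of the lists read beside the heat shock members differed between tangerine and red in edgeR's test of that difference, with an adjusted p under 0.05, where 1.71% of all genes did. No member was among them. Clpx, of the mitochondrial chaperones, had a log2 difference of -0.99. Among the clock genes, those of the activating arm were lower on tangerine, with Arntl at -1.46, Clock at -0.46, Npas2 at -2.51 and the repressor Cry1 at -0.47, while Nr1d2 was higher at 0.75 and Dbp at 1.84. Of the hepatocyte markers Cps1, the first enzyme of the urea cycle, was higher at 0.40, and of the stellate cell markers Ngfr was lower at -0.53. The T cell genes Lck (-2.59), Thy1 (-2.37), Trbc2 (-2.89) and Satb1 (-2.95) had the lower fitted level on tangerine, but the library of red mouse 186 held 222 CPM of T cell markers, beside a red median of 3.23 CPM and a tangerine median of 3.47 CPM. Without red mouse 186, an alternative added after seeing the data, the values were 0.08 for Lck, -0.03 for Thy1, 0.21 for Trbc2 and 0.32 for Satb1 (edgeR adjusted p = 0.898, 0.958, 0.703 and 0.364), so these calls rest on that library. Without it, Clpx (-0.99), Npas2 (-2.52), Nr1d2 (0.75), Dbp (1.74) and Ngfr (-0.54) were still called, while Arntl (-1.43), Clock (-0.45), Cry1 (-0.46) and Cps1 (0.40) had edgeR adjusted p-values of 0.0668, 0.0668, 0.0694 and 0.0624.

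Markers of tissues other than liver appeared in single libraries above the level of every control library. Adipocyte markers summed to 6.74 CPM in the library of red mouse 186, against at most 0.250 CPM in control libraries. Pancreas acinar cell markers summed to 10.2 CPM in that of tangerine mouse 216, against at most 0.200 CPM in control libraries.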

How the results depend on the processing

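No paired analysis was possible because no mouse number occurs in more than 1 diet. Of 381 log2 differences of the members under 13 other settings, 25 changed sign, all with a size of at most 0.176 and an adjusted p of at least 0.672, and 2 passed the threshold, both for Hspe1 with limma-voom. With DESeq2 size factors, the values were 0.0035 for Hspb1 (tangerine against red). With no filter on low counts, the values were 0.0016 for Dnajb1 (red against control) and 0.0081 for Hspb1 (tangerine against red). With mean log2 CPM of at least 1, the values were 0.0039 for Dnajb1 (red against control) and 0.00028 for Hspb1 (tangerine against red). With clock score as covariate, the values were 0.0235 for Hspa8 (red against control), 0.0036 for Hsph1 (red against control), 0.11 for Dnajb1 (red against control), -0.0322 for Hspb1 (red against control), -0.18 for Hspa8 (tangerine against red) and 0.16 for Hspb1 (tangerine against red). With surrogate variables as covariates, the values were 0.0169 for Hsp90aa1 (red against control), 0.0525 for Dnajb1 (red against control) and 0.0103 for Hspb1 (tangerine against red). With only the diets compared in the fit, the values were 0.0027 for Dnajb1 (red against control) and 0.00058 for Hspb1 (tangerine against red). Without red 186 and tangerine 216, the values were 0.0383 for Dnajb1 (red against control), -0.0033 for Hspa8 (tangerine against red) and 0.0744 for Hspb1 (tangerine against red). With near-identical copies summed, the values were 0.0257 for Hspb1 (tangerine against red). With DESeq2 Wald test, the values were 0.00045 for Dnajb1 (red against control) and 0.0056 for Hspb1 (tangerine against red). With limma-voom with sample weights, the values were 0.0165 for Serpinh1 (red against control) and 0.00704 for Hsph1 (tangerine against red). Leaving out 1 library in turn, 11 differences between single diets changed sign in at least 1 fit, over the ranges -0.0414 to 0.22 for Serpinh1 (tangerine against control), -0.19 to 0.50 for Hspa1a (red against control), -0.10 to 0.47 for Hspa1b (red against control), -0.091 to 0.0589 for Hsp90aa1 (red against control), -0.0796 to 0.0669 for Dnajb1 (red against control), -0.12 to 0.0183 for Serpinh1 (red against control), -0.0011 to 0.0562 for Hsp90ab1 (tangerine against control), -0.0162 to 0.12 for Hspa8 (tangerine against red), -0.10 to 0.0588 for Hsph1 (tangerine against red), -0.0633 to 0.014 for Hsp90ab1 (tangerine against red) and -0.0781 to 0.0716 for Hspb1 (tangerine against red). For both tomato diets against control the ranges were -0.34 to 0.0378 for Hspa1b, -0.15 to 0.00224 for Hsp90aa1, -0.10 to 0.00759 for Dnajb1 and -0.042 to 0.0978 for Serpinh1, which also changed sign. The count of members called ranged from 0 to 1 in those fits for red against control and for any difference among the diets, and was 1 with limma-voom for red against control and between the tomato diets. With the mouse number as a term edgeR called 32 of all 14068 genes between tangerine and red, and with the clock score 0, beside 241 in the main fit. Of the 72 other chaperone genes, 0 were called for tangerine against red with either term, 2 by DESeq2, 4 by limma-voom, 4 with surrogate variables and 1 to 2 with 1 library left out. With surrogate variables 3 were called for red against control, 1 for tangerine against control and 1 for both diets, and limma-voom called 9 for red against control. Over all 14068 genes the fit with surrogate variables called 507 between red and control, 127 between tangerine and control, 867 between the tomato diets and 114 for both, and limma-voom called 1482 between red and control and 732 between the tomato diets. Past the threshold with the clock score, 8 members stood in red alone, 1 in tangerine alone, 6 without the 2 farthest libraries and 4 by Spearman's rho, against 0 by Pearson's r over all. Of 45 pairs of members 11 passed in tangerine alone, against 33 over all libraries. The settings with near-identical copies summed, without tangerine 192, without red 186 for the called list genes and with Spearman's rho were chosen after seeing the data. The cause of these changes was not tested. At 12 libraries per diet the width of the intervals, above all for Hspa1a with as few as 2 reads, limits what could be detected.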
